A study of Mus musculus with 37 samples.

Results

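The Iroquois homeobox genes were examined in hearts of mouse embryos at E10.5, an embryonic stage at which the heart has looped and its chambers are forming. The members were chosen by symbol, and all 6 (Irx1, Irx2, Irx3, Irx4, Irx5 and Irx6) were among the 25239 genes of the deposited count table and among the 15046 genes that passed a filter on low counts. Bulk paired-end RNA sequencing had been done on 37 heart libraries of 4 genotypes. The father carried the Cre transgene Stra8-iCre, active in male germ cells, and a Nipbl Flox/+ genotype. Its sperm could hold the Flox allele, which the submitters describe as wild-type, or the null allele Nipbl FIN. The mother was Isl1 Cre/+, with a Cre recombinase in 1 allele of Isl1 that leaves a single working Isl1 copy. The groups are called wild-type (Nipbl +/+; Isl1 +/+, n = 10), Isl1_het (Isl1 +/-, n = 9), Nipbl_het (Nipbl +/-, n = 9) and double_het (Nipbl +/-; Isl1 +/-, n = 9). A Flox/+ father also has a + allele, so which paternal Nipbl allele wild-type and Isl1_het embryos carried is not settled here. Whether the Cre in Isl1 acted on a Flox allele in Isl1_het hearts is not given in the sources used here.

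Iroquois genes encode homeodomain transcription factors of the TALE class, which bind DNA and mostly repress, and sometimes activate, other genes. In mammals they lie in 2 clusters that arose by duplication, with Irx1, Irx2 and Irx4 in the first and Irx3, Irx5 and Irx6 in the second, and genes of a cluster can share enhancers. In the heart, Irx4 marks ventricular muscle, Irx1 and Irx2 mark the forming ventricular septum, Irx3 serves the ventricular conduction system, and Irx5 sets the gradient of potassium currents across the ventricular wall. Irx6 is best known from bipolar interneurons of the retina. Nipbl is the factor that places the cohesin ring on chromosomes, where cohesin forms DNA loops, and Isl1 is a transcription factor of the second heart field.

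On the GRCm38 build, as RefSeq gives them, Irx1 lies at chr13:71958232-71963723 on the minus strand, Irx2 at chr13:72624430-72634196 and Irx4 at chr13:73259589-73269622, both on the plus strand, a cluster of 1311 kb. The other cluster spans 882 kb, with Irx3 at chr8:91798511-91801654 on the minus strand, and Irx5 at chr8:92357796-92361456 and Irx6 at chr8:92674289-92680956 on the plus strand. In GENCODE M21, exons of the antisense gene Irx3os overlap those of Irx3, and exons of Gm45505, on the opposite strand, overlap those of Irx6. The strand setting of the counting is not given in the sources used here, so reads of Irx3 and Irx6 and of these partners cannot be told apart.

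Totals ranged from 23.4 to 51.0 mega-counts per library. A set number follows the letters IVF in each description label, with no account of what it marks. Sets 2, 5 and 6 held all 4 genotypes, set 1 held no library with Nipbl loss (3 wild-type and 3 Isl1_het), and set 7 held only double_het replicate 2, which its set term fitted exactly. Comparisons of double_het therefore rest on 8 libraries, while levels and counts of libraries use all 9. In CPM, counts scaled to library size, Nipbl averaged 60.02 ± 10.1 among wild-type hearts (SD, n = 10), 61.5 ± 5.88 in Isl1_het (SD, n = 9), 39.3 ± 13.8 in Nipbl_het (SD, n = 9; 35.2 ± 6.34 without replicate 2, n = 8) and 38.1 ± 7.41 in double_het (SD, n = 9). The library labelled Nipbl_het replicate 2 went against its label, with Nipbl at 72.4 CPM against 44.9 in the next Nipbl_het library, and it also stood apart in 4 Irx genes, so the main results are also given without it. Isl1, whose coding locus was targeted, averaged 7.37 ± 2.24 CPM among wild-type hearts (SD, n = 10) and 6.28 ± 1.76 in Isl1_het (SD, n = 9), and did not pass the test there (log2 change −0.20, adjusted p 0.877, edgeR). In double_het, which also carries a single working Isl1 copy, it averaged 9.50 ± 3.51 CPM (SD, n = 9; 4.80 to 15.1), higher than the wild-type mean and against the direction of the label, though not past the threshold (log2 change 0.32, adjusted p 0.591, edgeR), and in Nipbl_het 13.0 ± 2.82 CPM (SD, n = 9). Isl1 level therefore did not check the Isl1 genotype labels. Cardiac identity was checked on pan-cardiomyocyte markers (Tnnt2, Actc1, Tnni1, Ttn and Nkx2-5), whose summed level was at least 13920 CPM in every library. Lists of other tissues were low but not absent. The 7 foregut and lung genes summed to 0.553 to 12.8 CPM per library, and Foxa1, Nkx2-1, Shh and Cdh1 had medians under 0.1 CPM in every genotype. The 6 neural genes summed to 17.2 to 50.4 CPM, with Sox1 and Neurog2 at medians under 0.1 CPM in every genotype. The 5 liver genes had a median sum of 0.901 CPM in wild-type and 1.48 in Nipbl_het, with Alb and Hnf4a at medians under 0.1 CPM in every genotype, but reached 358.3 CPM in Nipbl_het replicate 9, against maxima of 15.5 to 18.5 in the other genotypes. Of these lists edgeR called 1 gene, Pax6, in Nipbl_het and 0 in double_het. At an unadjusted p under 0.05 in Nipbl_het were 2 of 3 tested liver genes, 2 of 3 neural and 0 of 3 foregut and lung genes. In double_het 1 neural gene was. Over all genes 1.71% and 2.6% were called in Nipbl_het and double_het, and 15.1% and 11.6% had an unadjusted p under 0.05. For Nipbl loss averaged over Isl1 genotypes 2 neural genes, Pax6 and Tubb3, were called higher (4.02% of all genes called). The liver list had a median log2 change of 2.73 in Nipbl_het over its 3 tested genes, 2 of them at an unadjusted p under 0.05. The part of these lists in the Irx results was not tested. Without Nipbl_het replicate 9, Irx4 in Nipbl_het was at −0.48 (adjusted p 0.0600, edgeR), against −0.47 with it.

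Per kb of exon, which allows genes to be compared, Irx4 was the most abundant Irx transcript in wild-type hearts at 36.8 ± 7.29 CPM per kb (SD, n = 10) and made up 49.3% ± 3.97 of the summed Irx level. Irx3 followed at 11.2 ± 2.19, Irx5 at 8.88 ± 1.32, Irx2 at 6.96 ± 1.45, Irx1 at 6.66 ± 1.26 and Irx6 at 3.80 ± 0.650 CPM per kb (SD, n = 10 each). Irx4 lay above Irx3 in 10 of 10 wild-type libraries, Irx3 above Irx5 in 9, Irx5 above Irx2 in 9, and Irx1 above Irx6 in 10. By this measure Irx2 and Irx1 did not differ beyond their spread, since Irx2 was the higher in 7 of 10 libraries by 0.298 ± 0.578 CPM per kb (SD, n = 10). With the length of the longest transcript in place of all exons, the order of the 6 means in wild-type remained the same, with Irx4 first and Irx6 last. Irx2 then stood further above Irx1, so their near tie depends on the length used. Their lengths were 3282 and 2620 bases of all exons, and 2625 and 2373 bases of the longest transcript. Irx4 was again first and Irx6 last in each of the other genotypes, but the Irx4 share was 48.4% ± 2.95 in Isl1_het, 40.4% ± 7.63 in Nipbl_het and 39.6% ± 3.15 in double_het (SD, n = 9 each), and 42.6% ± 3.61 in Nipbl_het without replicate 2 (SD, n = 8).

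**Figure D1:**
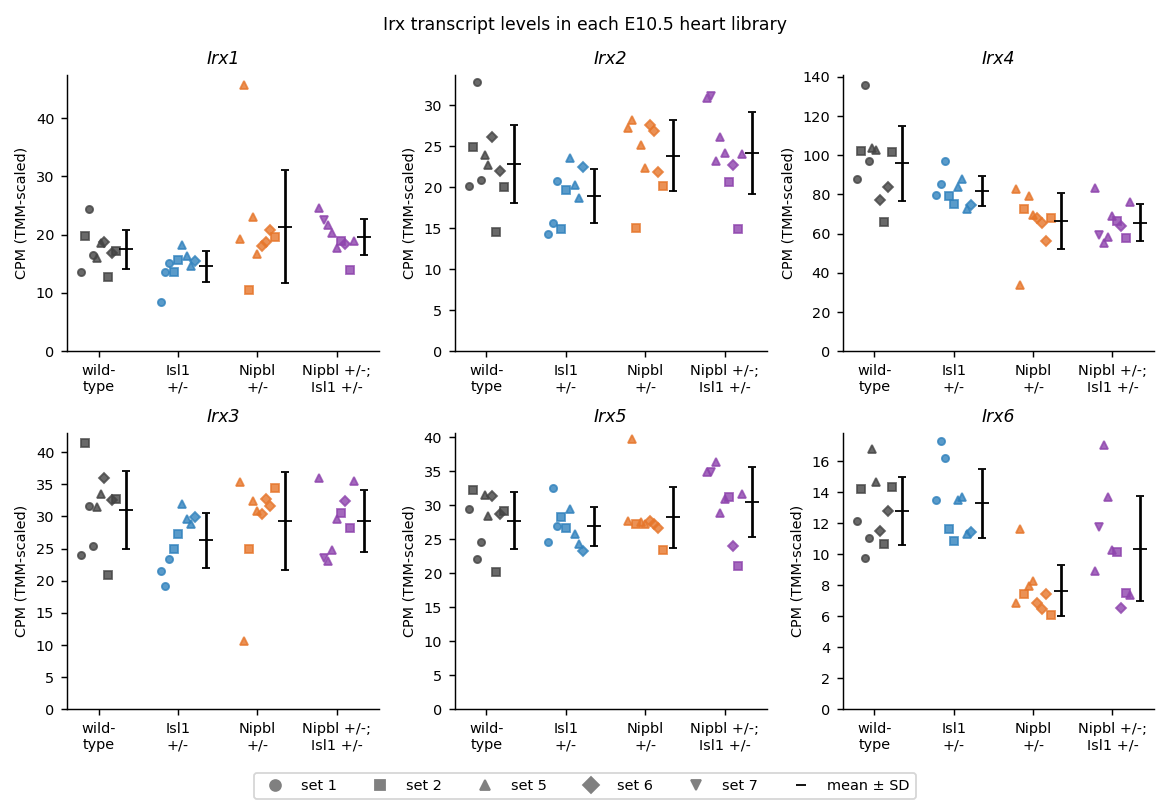
Level of each Irx gene in CPM after TMM scaling (vertical axis, from 0) in every library, by genotype, with marker shapes for the set number and black bars for the mean ± SD (n = 10 wild-type, 9 in each other group). For Irx4 all 18 libraries labelled Nipbl_het or double_het, Nipbl_het replicate 2 among them, lie below the wild-type mean of 95.8 CPM, and for Irx6 8 of 9 Nipbl_het libraries lie below every wild-type library.

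Loss of 1 Nipbl allele lowered Irx6 and Irx4, and the other 4 Irx genes did not pass the test. Of the 6 members, 2 were called in Nipbl_het against wild-type, both lower, against a background of 0.518% of all tested genes called lower (1.71% in either direction) by edgeR's quasi-likelihood test at an adjusted p under 0.05. The median log2 change of the 6 members was −0.11, and that of all genes was 0.01. In double_het against wild-type 1 member, Irx4, was called lower, with a background of 0.824% called lower (2.6% in either direction), and the members' median was −0.10. Averaged over both Isl1 genotypes, Nipbl loss lowered Irx4, at −0.36 (adjusted p 0.0174, edgeR), and Irx6 (background 1.36% called lower, 4.02% in either direction), and without Nipbl_het replicate 2 Irx4 was at −0.32 and Irx6 at −0.62. The averaged Irx4 call was lost without set 2, 5 or 6, at −0.38, −0.32 and −0.40 (adjusted p 0.154, 0.0988 and 0.0646, edgeR). Nipbl_het and double_het were compared with the same 10 wild-type libraries, so these comparisons are not independent of each other. Nothing in the labels says how libraries relate to embryos or litters, so p-values measure only the spread between libraries.

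Irx6 showed the largest fall among the members in Nipbl_het. In wild-type its lowest, median and highest levels were 9.79, 12.5 and 16.8 CPM, and in Nipbl_het they were 6.06, 7.43 and 11.6 CPM. The Nipbl_het values were under the lowest wild-type value in 8 of 9 libraries, and the exception was Nipbl_het replicate 2, without which the highest was 8.27 CPM and the groups did not overlap. The fitted log2 change was −0.76 (SE 0.14, 0.589 of the wild-type level, adjusted p 0.00200, edgeR), and −0.83 (adjusted p 5.23e-04, edgeR) without that library. Within sets 2, 5 and 6 the differences of mean log2 CPM were −0.94, −0.88 and −0.80, all in the same direction, and the set 5 value was −1.03 without replicate 2. The call was lost without set 2, where the log2 change was −0.69 (adjusted p 0.104, edgeR). Counts of Irx6 ranged from 200 to 715 per library.

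In double_het, Irx6 was spread more widely, with lowest, median and highest levels of 6.52, 10.2 and 17.0 CPM. Of these, 4 were under the lowest wild-type value and 1, double_het replicate 3, was over the highest, so the groups overlapped. The log2 change was −0.43 (SE 0.15), which missed the threshold (adjusted p 0.136, unadjusted p 0.00592, edgeR). Without double_het replicate 3 it was −0.54 and passed (adjusted p 0.0255, edgeR), and without the libraries of set 1 it was −0.55 and passed (adjusted p 0.0431, edgeR). Within sets 2, 5 and 6 the differences were −0.56, −0.52 and −0.89, with a single double_het library in set 6. Irx6 was 0.34 higher (log2) in double_het than in Nipbl_het, with a 95% confidence interval from 0.04 to 0.63, but this did not pass the correction (adjusted p 0.52, edgeR). Departure from the sum of the single changes was 0.33 on the log2 scale (95% interval −0.06 to 0.73, adjusted p 0.999, edgeR). It was 0.56 without set 1 and 0.07 without set 5, and missed the threshold in both, so a difference between the 2 Nipbl-deficient genotypes was not established. Averaged over Isl1 genotypes the change was −0.60 (SE 0.11, adjusted p 6.38e-04, edgeR).

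Irx4, the ventricular member, fell by a similar amount in both genotypes with Nipbl loss. Its lowest, median and highest levels were 66.0, 99.2 and 136.1 CPM in wild-type, 34.0, 68.2 and 82.9 CPM in Nipbl_het, and 55.1, 64.0 and 83.5 CPM in double_het. Each library of the latter groups, 9 of 9 in both, was under the wild-type mean, but the groups overlapped, with 3 of 9 Nipbl_het and 5 of 9 double_het libraries below every wild-type library. Fitted changes on the log2 scale were −0.47 (SE 0.12, adjusted p 0.0326, edgeR) in Nipbl_het and −0.50 (SE 0.13, adjusted p 0.0241, edgeR) in double_het, which is 0.721 and 0.706 of the wild-type level. Nipbl_het replicate 2 was the lowest library at 34.0 CPM, and without it the changes were −0.38 (adjusted p 0.0152, edgeR) and −0.53 (adjusted p 3.78e-04, edgeR).

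Irx4 was lower in each set that held both groups, with differences of −0.33, −0.72 and −0.35 in sets 2, 5 and 6 for Nipbl_het and −0.51, −0.61 and −0.33 for double_het. The set 5 value rested in part on Nipbl_het replicate 2, and without it was −0.42. The adjusted p of Irx4 was close to the threshold: both calls were lost when set 1, 2, 5 or 6 was left out, with log2 changes from −0.52 to −0.38 and adjusted p from 0.0864 to 0.186 (edgeR) in Nipbl_het. In double_het the corresponding log2 changes ran from −0.55 to −0.48, with adjusted p from 0.0521 to 0.199 (edgeR). Leaving out single libraries also moved the adjusted p over the threshold, while the size of the change stayed close. In Nipbl_het this was so without wild-type replicate 4, 5, 8, 9 or 10 or Nipbl_het replicate 9, with log2 changes from −0.48 to −0.45 and adjusted p up to 0.0714 (edgeR). In double_het it was so without wild-type replicate 4, double_het replicate 3 or double_het replicate 4, with log2 changes from −0.49 to −0.47 and adjusted p up to 0.0555 (edgeR). Irx4 did not differ detectably between double_het and Nipbl_het, with a log2 difference of −0.03 and a 95% interval from −0.28 to 0.22. Without Nipbl_het replicate 2 it was −0.15 (SE 0.09, adjusted p 0.708, edgeR).

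**Figure D2:**
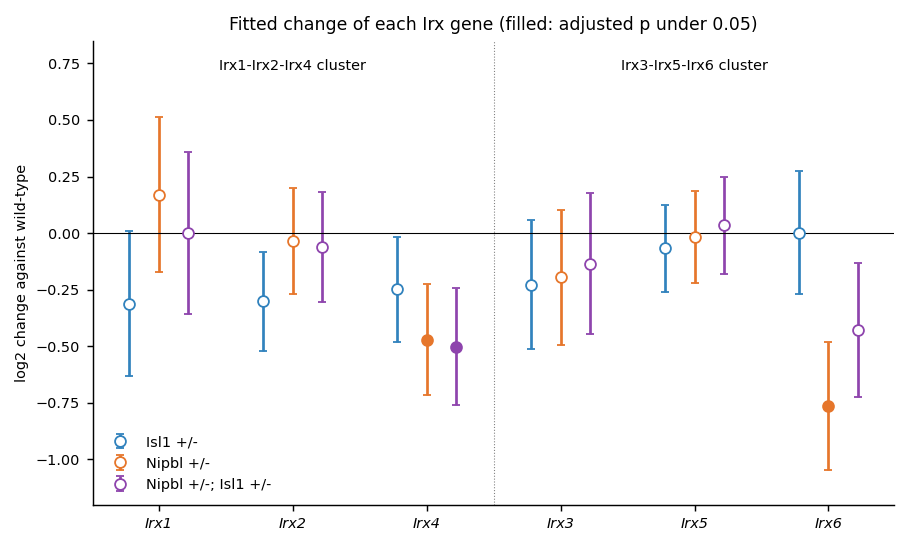
Fitted log2 change of each Irx gene against wild-type (vertical axis) for Isl1_het, Nipbl_het and double_het, with 95% confidence intervals and filled points where the adjusted p was under 0.05. Filled points stand at −0.47 and −0.50 for Irx4 and at −0.76 for Irx6, and no Isl1_het point is filled.

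Irx3 and Irx5, which share a cluster with Irx6, did not pass the test with Nipbl loss. Irx5 had lowest, median and highest levels of 20.1, 29.0 and 32.3 CPM in wild-type, 23.4, 27.3 and 39.7 CPM in Nipbl_het and 21.1, 31.2 and 36.5 CPM in double_het, with the groups overlapping throughout. The Nipbl_het maximum was replicate 2, and the next library stood at 27.7 CPM. Its log2 change was −0.02 in Nipbl_het (95% interval −0.22 to 0.19; −0.08 without replicate 2) and 0.03 in double_het (−0.18 to 0.25). Irx3 had lowest, median and highest levels of 20.8, 32.1 and 41.5 CPM in wild-type and 10.6, 31.7 and 35.4 CPM in Nipbl_het, with a lowest and median of 23.1 and 29.6 CPM in double_het and no library there above the highest wild-type library. The Nipbl_het minimum was again replicate 2, and the next library stood at 25.0 CPM. The groups overlapped, and the log2 change was −0.20 (95% interval −0.49 to 0.10) in Nipbl_het, −0.09 without replicate 2, and −0.14 (−0.45 to 0.18) in double_het.

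Irx1 and Irx2, which share a cluster with Irx4, likewise did not pass. Irx1 had lowest, median and highest levels of 12.7, 17.1 and 24.5 CPM in wild-type, 10.54, 19.2 and 45.6 CPM in Nipbl_het and 13.9, 18.9 and 24.6 CPM in double_het. The Nipbl_het maximum was replicate 2, and the next library stood at 23.0 CPM, inside the wild-type range. Its log2 change was 0.17 (95% interval −0.17 to 0.51) in Nipbl_het and 0.00 (−0.36 to 0.36) in double_het. Without replicate 2 the Nipbl_het value changed sign, to −0.0091, and the level averaged 18.32 CPM over the other 8 libraries. Irx2 had lowest, median and highest levels of 14.6, 22.4 and 32.9 CPM in wild-type, 15.1, 25.2 and 28.2 CPM in Nipbl_het and 14.9, 24.0 and 31.2 CPM in double_het. All 9 libraries of each group lay inside the wild-type range, and the log2 change was −0.03 (−0.27 to 0.20) in Nipbl_het, −0.06 without replicate 2, and −0.06 (−0.30 to 0.18) in double_het.

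Ratios taken within a library, which do not depend on its scaling, show unequal changes between members and are given as a description with no test. The ratio of Irx6 to Irx5 per kb had a median of 0.414 in wild-type (0.341 to 0.496), 0.456 in Isl1_het (0.378 to 0.560), 0.253 in Nipbl_het (0.220 to 0.281) and 0.308 in double_het (0.216 to 0.440). All 9 Nipbl_het libraries and 7 of 9 double_het libraries were under the lowest wild-type ratio. In Nipbl_het replicate 2, Irx6 was inside the wild-type range at 11.6 CPM. Its Irx5, at 39.7 CPM, was above the highest wild-type library (32.3 CPM), so its low ratio did not come with a low Irx6. The ratio of Irx4 to Irx1 per kb had a median of 5.57 in wild-type (4.14 to 6.49), 5.42 in Isl1_het (4.64 to 9.47), 3.52 in Nipbl_het (0.749 to 6.93) and 3.51 in double_het (2.57 to 4.19), with 6 of 9 Nipbl_het and 8 of 9 double_het libraries below every wild-type library. The Nipbl_het minimum was replicate 2, without which the median was 3.67 and the lowest 2.72, and replicate 3 lay above every wild-type library. Against other partners the shifts were smaller or less uniform. The ratio of Irx6 to Irx3 had medians of 0.357 in wild-type, 0.192 in Nipbl_het and 0.273 in double_het, with 8 of 9 and 4 of 9 libraries below every wild-type library, and Nipbl_het replicate 2 was above all of them at 0.902. The ratio of Irx4 to Irx2 had medians of 5.47, 3.83 and 3.54 in these genotypes, with 4 of 9 and 6 of 9 below every wild-type library, and that of Irx4 to Irx3 had medians of 3.32, 2.39 and 2.46, with 3 of 9 and 2 of 9. Medians of the ratio of Irx1 to Irx2 were 0.976, 0.978, 0.936 and 0.996 in wild-type, Isl1_het, Nipbl_het and double_het, with Nipbl_het replicate 2 at 2.03.

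Loss of 1 Isl1 allele alone changed no member past the threshold. In Isl1_het against wild-type 0 of 6 members were called by edgeR and 0 by DESeq2, with a background of 0% of all tested genes by edgeR, and 2 members, Irx2 and Irx4, had an unadjusted p under 0.05, as had 5.89% of all genes. Irx4 had lowest, median and highest levels of 72.4, 79.5 and 97.0 CPM in Isl1_het, inside the wild-type range, with 8 of 9 libraries below the wild-type mean. Its log2 change was −0.25 (95% interval −0.48 to −0.02, adjusted p 0.835, edgeR). Irx2 had lowest, median and highest levels of 14.4, 19.6 and 23.6 CPM in Isl1_het, 8 of 9 below the wild-type mean, and a log2 change of −0.30 (−0.52 to −0.08, adjusted p 0.736, edgeR). Irx1 was at −0.31 (−0.63 to 0.01) and Irx3 at −0.23 (−0.51 to 0.06).

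Irx6 did not share this direction, with a log2 change of 0.00 (−0.27 to 0.27) in Isl1_het. Its levels there were 10.9, 13.5 and 17.3 CPM (lowest, median and highest), overlapping wild-type. Sets disagreed in sign, since the difference of mean log2 CPM was 0.51 in set 1 and −0.20, −0.30 and −0.08 in sets 2, 5 and 6. Irx5 was at −0.07 (−0.26 to 0.13).

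The remaining comparisons called no member. In double_het against Isl1_het (background 0.957%), Irx6 was at −0.43 (SE 0.15, adjusted p 0.255, edgeR) and Irx4 at −0.25 (SE 0.13, adjusted p 0.696, edgeR), and 1 of 6 members had an unadjusted p under 0.05, as had 7.49% of all genes. In double_het against Nipbl_het (background 0%), that number was again 1, Irx6, with 9.01% of all genes. For the interaction (background 0%) no unadjusted p was under 0.05 among the 6 members, with 2.73% of all genes. For Isl1 loss averaged over Nipbl genotypes (background 0.173%), Irx1 at −0.24 and Irx2 at −0.16 had an unadjusted p under 0.05, as had 12.2% of all genes, and without Nipbl_het replicate 2 they were at −0.13 and −0.16. DESeq2 called 0 members in each of these 4 comparisons.

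The genes around the clusters were set beside the members. Of the other RefSeq genes starting within 1 Mb of either cluster, 44 were in the count table and the rest were not analysed here. Of these 44, 23 passed the filter, and 0 of these 23 were called by edgeR or DESeq2 in Nipbl_het or double_het against wild-type, with 2 and 1 at an unadjusted p under 0.05, against 15.1% and 11.6% of all genes. Without Nipbl_het replicate 2 the double_het count was 1, Trip13, a gene of meiotic recombination and the spindle checkpoint, at −0.26 (adjusted p 0.00767, edgeR). The median log2 change of the 23 genes was −0.08 in Nipbl_het and −0.04 in double_het, beside 0.01 and 0.00 over all genes. Around Irx1, Irx2 and Irx4 it was −0.11 (12 of 15 negative) and −0.06 (11 of 15), and around Irx3, Irx5 and Irx6 it was 0.04 (5 of 8 positive; −0.014 without Nipbl_het replicate 2) and 0.05 (5 of 8). Inside the clusters, the long noncoding RNA Gm20554 overlaps Irx2 in RefSeq (chr13:72623466-72628564) but not in GENCODE M21, and which annotation was counted is not given in the sources used here, so shared reads cannot be told apart. It was at −0.08 (SE 0.19) and 0.09 (SE 0.20) in Nipbl_het and double_het. Crnde, a long noncoding RNA between Irx3 and Irx5, was at −0.18 (SE 0.12) and −0.22 (SE 0.12). Next to Irx4, the respiratory chain gene Ndufs6 was at −0.19 (SE 0.21) and −0.23 (SE 0.21). Beyond it, Mrpl36 and Eprn averaged 76.2 ± 16.3 and 8.94 ± 2.60 CPM in wild-type (SD, n = 10). Their means were 57.1 and 6.12 CPM in Nipbl_het and 55.6 and 6.80 CPM in double_het, without adjustment for set, and neither was called by edgeR. On the same measure Irx4 averaged 95.8, 66.2 and 65.6 CPM. Fto, the RNA demethylase gene beside Irx3 whose introns hold Irx3 enhancers, was at 0.01 (SE 0.08) and 0.00 (SE 0.08), and the matrix protease gene Mmp2, beside Irx6, was at −0.02 (SE 0.10) and 0.09 (SE 0.10).

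**Figure D3:**
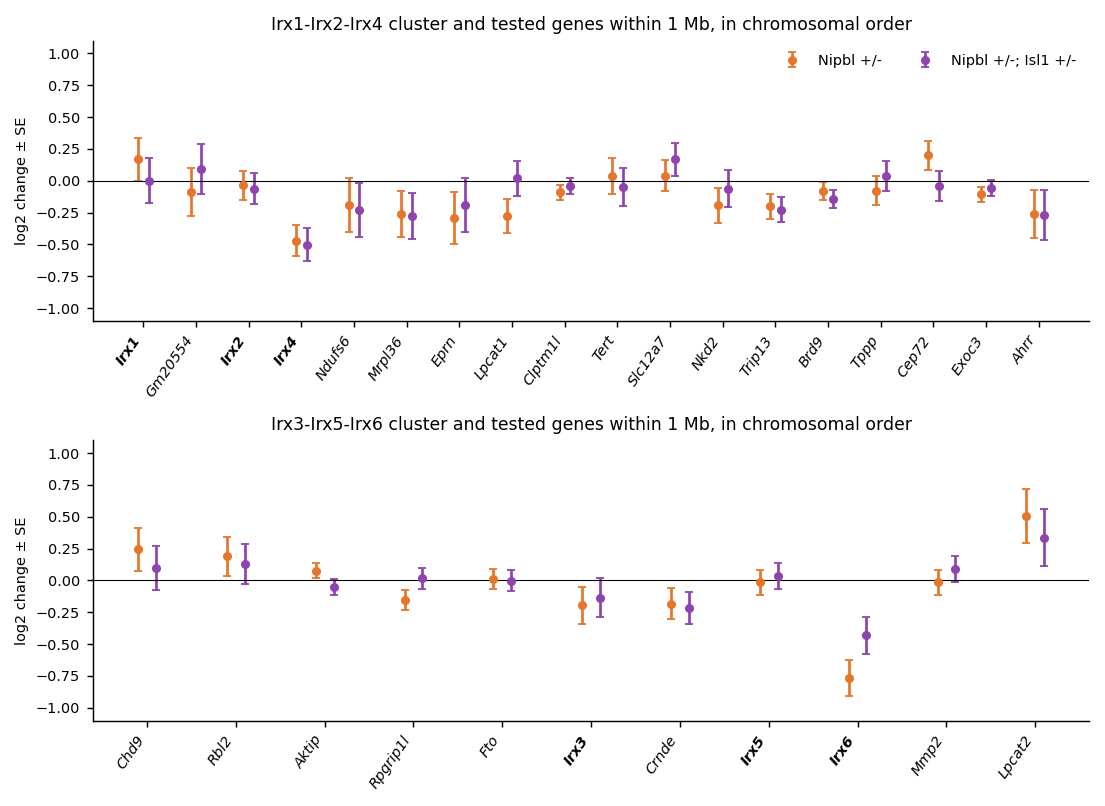
Log2 change against wild-type ± SE (vertical axis) of Irx genes (bold) and of the 23 tested neighbours, in chromosomal order along each cluster (horizontal axis, not to distance), for Nipbl_het and double_het. Irx4 at −0.47 and −0.50 and Irx6 at −0.76 and −0.43 lie below the tested genes directly next to them.

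Genes known to act upstream of, with or below Irx proteins in the heart were taken from a list of 18, all of them tested. In Nipbl_het 0 were called higher and 1 lower (0.518% of all genes were called lower), and in double_het 0 were called (2.6% in either direction), with 3 and 4 of 18 at an unadjusted p under 0.05 by edgeR, against 15.1% and 11.6% of all genes. The 1 called was Gja1, which encodes the gap junction protein connexin 43, at −0.42 (SE 0.09, adjusted p 0.0134, edgeR). The list's median log2 change was −0.08 in Nipbl_het and −0.13 in double_het. Averaged over Isl1 genotypes, Nipbl loss lowered 2 of the 18 (1.36% of all genes), Gja1, at −0.39 (SE 0.07, adjusted p 8.98e-04, edgeR), and Kcnd2, a transient outward potassium channel gene that Irx5 represses in adult ventricle, at −0.58 (SE 0.13, adjusted p 0.00719, edgeR). Without Nipbl_het replicate 2 these averaged changes were −0.40 and −0.62, 2 further listed genes passed (Gja5, at −0.26, and Cxcl12, at −0.33), and Gja1 in Nipbl_het was at −0.45.

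Some markers of heart cell types also passed the threshold with Nipbl loss, and most did not. In bulk tissue, fewer cells of a type and less RNA per cell cannot be told apart. All 6 ventricular markers (Myl2, Myh7, Myl3, Hey2, Mycn and Hand1) had a negative change in Nipbl_het and in double_het, with medians of −0.23 and −0.29. Past the threshold was Mycn, a growth-promoting transcription factor gene, at −0.47 (adjusted p 4.21e-04, edgeR) in Nipbl_het and −0.50 (adjusted p 1.98e-04, edgeR) in double_het. In double_het Hey2, a repressor of the compact ventricular wall, also passed, at −0.42 (adjusted p 0.0360, edgeR). The markers called were thus 1 of 6 in Nipbl_het and 2 of 6 in double_het, against 1.71% and 2.6% of all genes. The summed ventricular level ranged from 11440 to 17590 CPM in wild-type, from 10560 to 13900 in Nipbl_het and from 9617 to 15590 in double_het. In Isl1_het too, 6 of 6 had a negative change, with a median of −0.22, 0 called and 2 at an unadjusted p under 0.05, against 5.89% of all genes. The 5 pan-cardiomyocyte markers had a negative change in 5 of 5 in Isl1_het, 4 of 5 in Nipbl_het and 5 of 5 in double_het, with medians of −0.20, −0.18 and −0.20. In each of these comparisons 0 were called by edgeR, against 0%, 1.71% and 2.6% of all genes. At an unadjusted p under 0.05 were 3, 0 and 3 of them, against 5.89%, 15.1% and 11.6% of all genes. These values stand beside those of Irx4 with Nipbl loss and of Irx1, Irx2, Irx3 and Irx4 in Isl1_het, and their part in them was not tested.

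Epicardial markers went the other way. In Nipbl_het 1 of 7 rose (Wt1, 0.31), against 1.71% of all genes called, and in double_het 5 of 7 rose, against 2.6%, with Upk3b at 0.72, Sema3d at 0.73 and Wt1 at 0.53. Their summed level ranged from 261.1 to 463.0 CPM in wild-type, from 406.6 to 613.9 in Nipbl_het, which overlapped wild-type, and from 519.0 to 674.2 in double_het, which did not. None of the 6 endocardial and endothelial markers was called by edgeR in either genotype, with 1 and 2 at an unadjusted p under 0.05 (15.1% and 11.6% of all genes) and medians of −0.02 and 0.17. Of 6 second heart field genes, 6 had a positive change in Nipbl_het (median 0.63) and 4 in double_het (median 0.26). Those called were Tbx1 and Isl1 in Nipbl_het, at 1.38 and 0.79, and Tbx1 in double_het, at 1.37. Of 7 atrial markers, 6 had a positive change in Nipbl_het (median 0.42) and 5 in double_het (median 0.16), and Sln was the 1 called in each, at 1.84 and 2.23. The summed atrial level had medians of 7730 CPM in wild-type, 6262 in Nipbl_het and 6064 in double_het. Of 3 neural markers tested, 2 had a positive change in Nipbl_het, where Pax6 was called at 0.93, and 1 in double_het. Without Nipbl_het replicate 2, Tbx1 in Nipbl_het was at 1.01 and did not pass (adjusted p 0.0605, edgeR). In that fit the atrial markers Nr2f2 (0.61) and Kcna5 (0.58) and the neural marker Tubb3 (0.54) passed as higher in Nipbl_het, and Hey2 (−0.33) and the endocardial marker Npr3 (−0.25) as lower. In double_het the epicardial marker Tcf21 passed as higher (0.47) and the second heart field gene Fgf10 as lower (−0.51), opposite to Tbx1. The ventricular medians were then −0.23 and −0.32 and the epicardial ones 0.29 and 0.47 in these genotypes. The part of these markers in the Irx6 result was not tested. Erythroid RNA varied between single libraries, from 484.2 to 105500 summed CPM. Its median change also differed between genotypes, but no erythroid gene passed the threshold in any comparison. Of 6 erythroid genes tested, 6 had a negative change in Nipbl_het (median −0.84) and 6 a positive one in double_het (median 0.69), with 0 called by edgeR and 0 at an unadjusted p under 0.05 in each. Between double_het and Nipbl_het their median difference was 1.53, and for averaged Isl1 loss it was 1.04, with 6 of 6 positive and at an unadjusted p under 0.05 in both (9.01% and 12.2% of all genes), and 0 called by edgeR (0% and 0.173% of all genes). In double_het against Nipbl_het, 7 of 7 epicardial (median 0.33) and 6 of 6 endocardial markers (0.19) also had a positive change. There 6 of 6 second heart field genes, Isl1 among them, had a negative one (−0.50). At an unadjusted p under 0.05 were 5, 2 and 3 of these, with 0 called. For averaged Isl1 loss 7, 6 and 1 were positive, with 1 epicardial gene called. The part of the erythroid and of these other lists in the Irx6 difference between double_het and Nipbl_het and in the Irx1 and Irx2 values for Isl1 loss was not tested. The library with most erythroid RNA, wild-type replicate 7, was the lowest wild-type library for Irx1, Irx2, Irx3, Irx4 and Irx5.

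Between hearts of the same genotype and set, some Irx genes varied together. This was measured on log2 CPM after removing genotype and set means, over 36 libraries, with a permutation test adjusted over the 15 pairs of members. By Pearson's r 4 pairs passed, 3 of them among the 6 pairs within a cluster, and by Spearman's rho 6 passed, 4 of them within a cluster. Irx4 and Irx3, on different chromosomes, had a Pearson r of 0.889 and a Spearman rho of 0.728 (permutation p 1e-05, the smallest that 100000 permutations can give, and 3e-05, adjusted p 7.5e-05 and 2.25e-04). The r was 0.713 without the 2 libraries farthest from the median of Irx4, Nipbl_het replicate 2 and wild-type replicate 7. Within sets 1, 2, 5 and 6 it was 0.854, 0.774, 0.965 and 0.0622, so it did not hold in set 6. With genotype and set means left in, the r was 0.519.

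Irx1 and Irx2, in the same cluster, had an r of 0.717 and a rho of 0.747 (permutation p 1e-05 for each, adjusted p 7.5e-05 and 1.5e-04), and 0.790 without the 2 farthest libraries. Within sets the r was 0.893, 0.887, 0.599 and −0.161 in sets 1, 2, 5 and 6, and again it did not hold in set 6. Irx5 and Irx6, in the same cluster, had an r of 0.632 and a rho of 0.627 (permutation p 1e-04 and 1.7e-04, adjusted p 5e-04 and 8.5e-04), 0.636 without the 2 farthest libraries, and 0.839, 0.788, 0.541 and 0.609 within sets 1, 2, 5 and 6. This pair was positive in every set, but on log2 CPM with genotype and set means left in its r was 0.347 and did not pass (adjusted permutation p 0.11). Irx3 and Irx6, in the same cluster, had an r of −0.485 and a rho of −0.442 (permutation p 0.00935 and 0.00956, adjusted p 0.0351 and 0.0287), −0.564 without the 2 farthest libraries, with a positive r of 0.333 within set 2. With genotype and set means left in, it was at −0.316 and did not pass either (adjusted permutation p 0.115). All of these values come from the same libraries and share their depth and scaling.

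**Figure D4:**
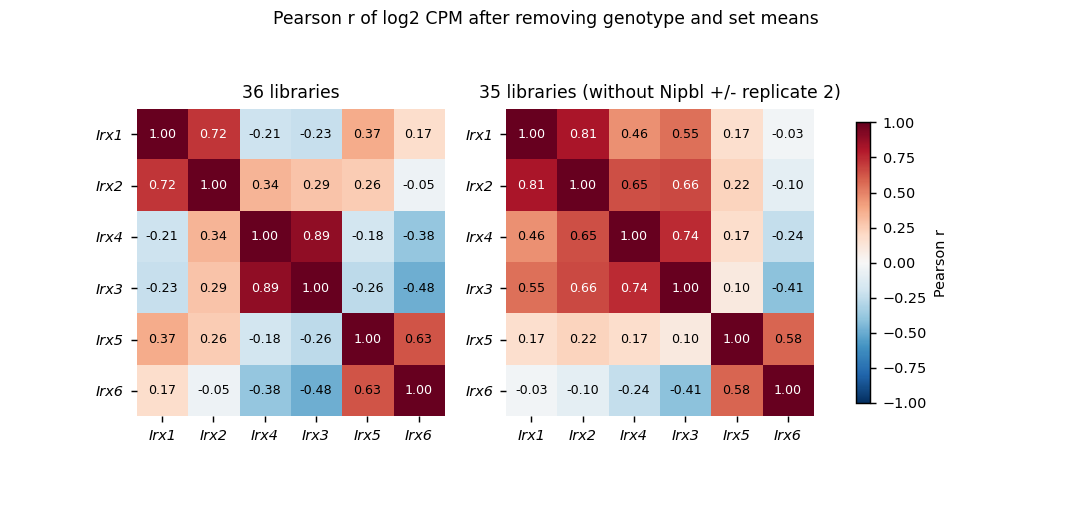
Pearson r between the 6 Irx genes, from −1 (blue) to 1 (red), for log2 CPM after removing genotype and set means, over 36 libraries (left) and over 35 without Nipbl_het replicate 2 (right). Irx4 with Irx3 is the highest pair on the left at 0.889, and Irx1 with Irx4 changes from −0.209 to 0.455 between the panels.

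The Pearson r of several pairs depended on Nipbl_het replicate 2, in which Irx1 and Irx5 were high (45.6 and 39.7 CPM) and Irx3 and Irx4 were low (10.6 and 34.0 CPM). Without it 8 of the 15 pairs passed over 35 libraries. Irx4 and Irx3 were then at an r of 0.743, Irx1 and Irx2 at 0.814, Irx5 and Irx6 at 0.582 and Irx3 and Irx6 at −0.412. Irx1 with Irx4 went from −0.209 to 0.455 (adjusted permutation p 0.0389), and Irx1 with Irx3 from −0.234 to 0.548 (adjusted permutation p 0.00705). Irx2 with Irx4 went from 0.336 to 0.645, and Irx2 with Irx3 from 0.289 to 0.664, and these 2 pairs passed by Spearman's rho with that library included (0.428 and 0.477, adjusted permutation p 0.0306 and 0.015). Over these 35 libraries Irx1, Irx2, Irx3 and Irx4 were all positively related to each other.

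**Figure D5:**
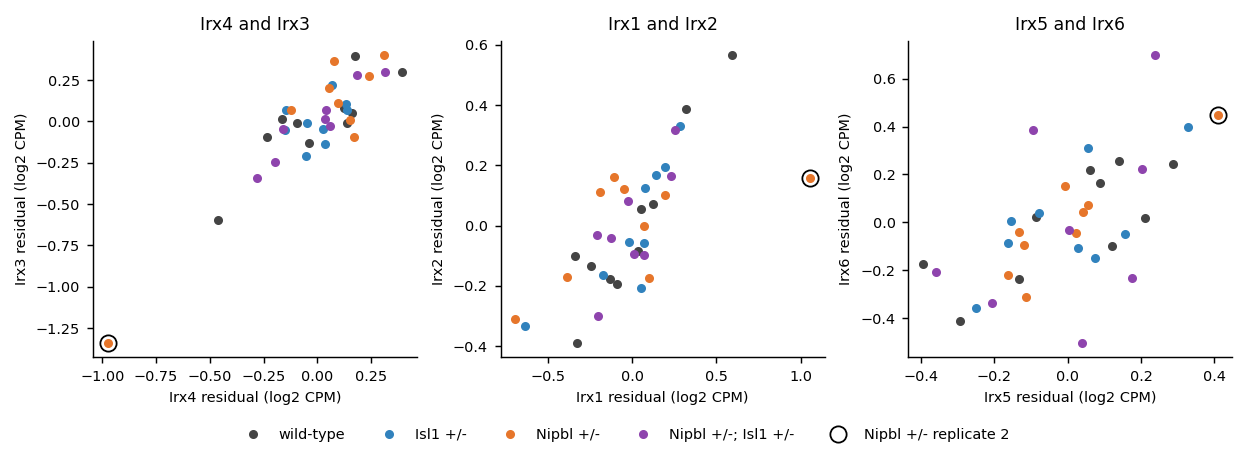
Deviation of each of 36 libraries from its genotype and set means (log2 CPM) for Irx4 and Irx3, Irx1 and Irx2, and Irx5 and Irx6, coloured by genotype, with Nipbl_het replicate 2 circled. The circled library lies far from the rest for Irx4 with Irx3 and for Irx1 with Irx2, and the remaining points still slope upwards in each panel.

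The start-site regions of Irx4 and Irx3 are shown because this pair had the highest Pearson r over 36 libraries. By Spearman's rho, and by Pearson's r without Nipbl_het replicate 2, Irx1 and Irx2 were the higher pair. Promoters were taken from a RefSeq table (GRCm38.p6) that matched 3 of the 6 members, as 250 bases before and 50 after a transcript start. For Irx4 and Irx2 that start lies inside the gene span given above, downstream of its first base. Capitals mark matches to the letters searched on both strands, namely AGATAA for GATA factors, GGTGTG for T-box factors, CAAGTG for Nkx2-5, CANNTG for the E-box, TATAAA for the TATA box and ACGTG for the low-oxygen response element. The Nkx2-5 letters also fulfil the E-box. The Irx4 region is chr13:73260247-73260546 on the plus strand, with 70.7% G and C.
Irx4: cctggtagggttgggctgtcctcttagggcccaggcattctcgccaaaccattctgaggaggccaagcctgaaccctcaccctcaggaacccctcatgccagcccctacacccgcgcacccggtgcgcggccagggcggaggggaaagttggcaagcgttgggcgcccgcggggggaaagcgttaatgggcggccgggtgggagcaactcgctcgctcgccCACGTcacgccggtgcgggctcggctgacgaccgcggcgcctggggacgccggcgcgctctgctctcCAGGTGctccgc
The Irx3 region is chr8:91801605-91801904 on the minus strand, with 56.0% G and C, and holds none of these letters.
Irx3: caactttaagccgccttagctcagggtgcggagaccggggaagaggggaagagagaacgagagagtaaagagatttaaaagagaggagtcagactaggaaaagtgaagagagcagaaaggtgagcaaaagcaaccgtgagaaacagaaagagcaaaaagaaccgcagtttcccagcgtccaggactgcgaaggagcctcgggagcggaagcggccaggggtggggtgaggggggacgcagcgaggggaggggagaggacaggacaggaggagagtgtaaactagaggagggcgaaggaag
In Irx4 the matches were CACGT, which is ACGTG read on the other strand, and CAGGTG, an E-box. Of 32851 promoters of the same length, 19.6% held ACGTG and 72.3% held CANNTG, while 11.2% held AGATAA, 19.0% GGTGTG, 13.6% CAAGTG and 13.6% TATAAA. The promoter of Irx2, at chr13:72628570-72628869 on the plus strand, held CACGT and the E-box CAGATG. These matches are descriptions of letters, and no binding was measured.

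Genes whose deviations were most like those of a member were ranked by Pearson r over the same 36 libraries among 12182 genes, as a description. For Irx4 they were Unc45b, a chaperone gene of muscle myosin (0.901), Trib2, a pseudokinase gene (0.901), and Slc22a15, a solute carrier gene (0.899). Trib2 also fell with Nipbl loss, at −0.75 (adjusted p 6.29e-04, edgeR) in Nipbl_het and −0.70 (adjusted p 0.00133, edgeR) in double_het, while Unc45b at −0.11 and −0.19 did not pass. For Irx3 they were Tmem132a (0.907), Unc45b (0.886) and Hand2, a transcription factor gene of the right ventricle (0.881). These ranks rested in part on Nipbl_het replicate 2. Without it Unc45b was still the first gene for Irx4 (0.807), while Trib2 went to rank 5 (0.784) and Slc22a15 to rank 11 (0.768). For Irx3, Tmem132a went to rank 2 (0.722), Unc45b to rank 18 (0.644) and Hand2 to rank 24 (0.624).

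For Irx1 the nearest genes were Cdh2, the N-cadherin gene (0.832), Retreg1 (0.806) and Hey2 (0.795), and for Irx2 they were Kcng1 (0.745), Map3k5 (0.736) and Brsk1 (0.728). For Irx5 they were Foxc2, a forkhead factor gene (0.753), Grip1 (0.716) and Jak3 (0.697). For Irx6 they were Ndufa4l2, a mitochondrial gene induced in low oxygen (0.753), H2-Ab1 (0.738) and Pdxp (0.731). Without Nipbl_het replicate 2, Cdh2 went to rank 3, Retreg1 to rank 11 and Hey2 to rank 10 for Irx1, and Map3k5 became the first gene for Irx2, with Kcng1 at rank 4 and Brsk1 at rank 8. Foxc2 was still the first for Irx5, with Grip1 at rank 8 and Jak3 at rank 10, and for Irx6 the ranks became 3 for Ndufa4l2, 5 for H2-Ab1 and 9 for Pdxp. In Nipbl_het, Ndufa4l2 was at 1.34 (SE 0.64, adjusted p 0.31, edgeR), H2-Ab1 at 0.97 (SE 0.51, adjusted p 0.363, edgeR) and Pdxp at 0.04 (SE 0.12), and their difference from Irx6 was not tested.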

How the data were processed

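The data are bulk RNA sequencing of 37 libraries of E10.5 mouse hearts. The authors deposited 1 table of raw read counts per gene symbol, with no normalization. The submitters' processing notes name STAR, featureCounts, GRCm38 and mm10, while versions, annotation and strand setting are not given in the sources used here. Genotypes were read from the titles and the set number from the description label.

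Genes were filtered with filterByExpr (minimum count 10, minimum total 15), scaled by TMM and fitted with edgeR 4.0.16 (R 4.3.3, limma 3.58.1) by the quasi-likelihood method in a single fit of all 37 libraries on genotype plus set number. Tests were two-sided, with Benjamini-Hochberg adjustment over all 15046 genes of a comparison and a threshold of 0.05. Levels are CPM after TMM scaling, and per kb of union exon length in GENCODE M21, which was used for lengths only. Log2 CPM used a prior count of 2. Correlations used 100000 permutations within sets. RefSeq coordinates and promoters are of GRCm38.p6. The fit was tested on simulated data of 14970 genes, for Nipbl_het against wild-type. It recovered 56.6% of 100 genes changed by 0.5 on the log2 scale and 84.7% of 100 changed by 1. In that run 12 unchanged genes were also called. In 153 pairs of same-genotype libraries a chi-square of counts was at least 7.46 per degree of freedom, so none was counted as a duplicate.

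The genes named were the 6 members, Nipbl and Isl1, neighbours and listed genes past the threshold or next to a cluster, markers past the threshold, and the 3 genes most like each member at a mean log2 CPM of 1 or more. Mrpl36 and Eprn, beyond Ndufs6, were also named. Members and lists were chosen with earlier results of these data known. Alternatives were no set term, a replicate block in place of the set, DESeq2 1.42.0, its size factors in edgeR, other filters, 2 surrogate variables (sva 3.50.0), and leaving out each set or library. Depth was 23.4 to 51.0 mega-counts per library, and read counts without molecular identifiers are not independent molecules.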

Additional observations from a re-analysis of the deposited data

Results flagged for a closer look

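In groups of 9 or 10 libraries, a library was singled out where its gap to the nearest other library was large for the range of the group (Dixon's criterion), which chance does in about 1 of 20 groups. Here 5 of 24 groups of levels had such a library, and 4 of the 5 were the same library, Nipbl_het replicate 2. In that library Irx1 was the highest of its group at 45.6 CPM, Irx3 the lowest at 10.6 CPM, Irx5 the highest at 39.7 CPM and Irx6 the highest at 11.6 CPM. Its Nipbl level of 72.4 CPM went against its label. The remaining case was Irx1 in Isl1_het replicate 1, the lowest of its group at 8.43 CPM. Causes were not tested.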

How the results depend on the processing

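No member other than Irx4 and Irx6 was called in Nipbl_het or double_het against wild-type, or for Nipbl loss averaged over Isl1 genotypes, under any alternative run. Causes of the changes below were not tested. Irx6 had 200 to 715 counts per library. Without set 1 the number of members called in Nipbl_het was 1, Irx4 was at −0.47 (adjusted p 0.0864) and −0.50 (adjusted p 0.0521) in Nipbl_het and double_het, Irx6 in double_het passed at −0.55, and uncalled values changed sign for Irx6 in Isl1_het (−0.24), Irx2 in Nipbl_het (0.015) and Irx5 in double_het (−0.025). With only sets 2, 5 and 6 these values were the same. Without set 2 the number called was 0 in Nipbl_het, 0 in double_het and 1 for averaged Nipbl loss, with Irx4 at −0.52, −0.51 and −0.38 and Irx6 in Nipbl_het at −0.69, and signs changed for Irx2 (0.0245) and Irx5 (0.0217) in Nipbl_het and for Irx4 in double_het against Nipbl_het (0.0073). Without set 5 the numbers were 1, 0 and 1, with Irx4 at −0.38, −0.48 and −0.32. Signs then changed for Irx5 in Isl1_het (0.0014), Irx1 in Nipbl_het (−0.0708), Irx1 (−0.0546) and Irx5 (−0.11) in double_het, Irx5 in double_het against Isl1_het (−0.11), Irx1 (0.0162) and Irx5 (−0.0459) in double_het against Nipbl_het, the Irx5 interaction (−0.0473), and averaged Nipbl loss for Irx3 (0.0238) and Irx5 (−0.0874). Without set 6 the numbers were 1, 0 and 1, with Irx4 at −0.52, −0.55 and −0.40, and signs changed for Irx5 in Nipbl_het (0.0149), Irx1 in double_het (−0.0044), Irx2 in double_het against Nipbl_het (0.0072) and Irx5 for averaged Isl1 loss (0.0406).

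With 2 surrogate variables the members called were 2 in double_het, where Irx6 was at −0.44 (adjusted p 0.0245), 1 in double_het against Isl1_het, where Irx6 was at −0.46 (adjusted p 0.0405), and 1 for averaged Isl1 loss, where Irx4 was at −0.20 (adjusted p 0.0317). The cluster neighbours called were then 2 in Nipbl_het (Mrpl36 and Ndufs6), 2 in double_het (Mrpl36 and Trip13) and 1 for averaged Nipbl loss (Mrpl36), and signs changed for Irx1 in Nipbl_het (−0.0035) and double_het (−0.0337), Irx3 in double_het against Nipbl_het (−0.0411) and Irx3 for averaged Nipbl loss (0.0424). DESeq2, its size factors in edgeR and a minimum of 10 counts in every library changed no call of a member. DESeq2 and its size factors reversed the uncalled Irx6 in Isl1_het (−0.0042 and −0.0041) and Irx1 in double_het (−0.0149 and −0.0150), and the minimum reversed Irx1 in double_het (−0.0039). Without a set term no call changed, and signs changed for Irx2 (0.0626) and Irx5 (0.0258) in Nipbl_het, Irx2 in double_het (0.0838) and in double_het against Nipbl_het (0.0212), Irx3 for averaged Nipbl loss (0.0370) and Irx5 for averaged Isl1 loss (0.0306).

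The replicate numbers of the titles are not said to mark a shared litter or day, and libraries sharing one had a mean correlation of deviations of 0.037, from −0.449 to 0.554 over 54 pairs, with 3 of 36 libraries best matched to their own number. With the replicate block in place of the set number no call of a member changed: Irx4 was at −0.53 and −0.54, and Irx6 at −0.75 and −0.33, in Nipbl_het and double_het. Signs changed for the uncalled Irx2 (0.0810) and Irx5 (0.0446) in Nipbl_het, Irx2 in double_het (0.102) and in double_het against Nipbl_het (0.0207), Irx3 for averaged Nipbl loss (0.0468) and Irx5 for averaged Isl1 loss (0.0393). Over all genes, calls with the block went from 391 to 610 in double_het, from 605 to 993 for averaged Nipbl loss and from 26 to 9 for averaged Isl1 loss, and by less than 1.5 times in the other comparisons. Without a set term they were 467 instead of 258 in Nipbl_het, 1045 for averaged Nipbl loss and 0 for averaged Isl1 loss. DESeq2 called 11 instead of 0 in Isl1_het, 459 in Nipbl_het, 234 instead of 144 in double_het against Isl1_het and 115 for averaged Isl1 loss. With surrogate variables the counts were 11 in Isl1_het, 1332 in Nipbl_het, 1779 in double_het, 763 in double_het against Isl1_het, 13 instead of 0 in double_het against Nipbl_het, 2057 for averaged Nipbl loss and 243 for averaged Isl1 loss. Without Nipbl_het replicate 2 they were 410 in Nipbl_het, 839 in double_het, 361 in double_het against Isl1_het, 1044 for averaged Nipbl loss and 56 for averaged Isl1 loss. Leaving out other single libraries lowered them to 167 in Nipbl_het (without Nipbl_het replicate 9), 244 in double_het (without double_het replicate 4) and 73 in double_het against Isl1_het (without Isl1_het replicate 6). For averaged Isl1 loss they ran from 4 (without double_het replicate 5) to 73 (without wild-type replicate 7), and for averaged Nipbl loss the lowest was 436.

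Leaving out each of the 37 libraries in turn, the members called ranged from 1 to 2 in Nipbl_het and from 0 to 1 in double_het. Irx4 ranged from −0.52 to −0.38 and from −0.56 to −0.47, and Irx6 from −0.83 to −0.73 and from −0.54 to −0.37. Uncalled values whose range crossed 0 were Irx6 in Isl1_het (−0.0574 to 0.0483), Irx1 (−0.0091 to 0.273), Irx2 (−0.0776 to 0.0186) and Irx5 (−0.0758 to 0.0204) in Nipbl_het, Irx1 (−0.0619 to 0.0465) and Irx5 (−0.0101 to 0.0861) in double_het, Irx1 (−0.255 to 0.0435), Irx2 (−0.0807 to 0.0129), Irx4 (−0.149 to 0.0060) and Irx3 (−0.0816 to 0.111) in double_het against Nipbl_het, and Irx5 for averaged Isl1 loss (−0.0328 to 0.0208).

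Without removing genotype and set number, the correlations of Irx1 with Irx5 (0.502) and Irx2 with Irx5 (0.437) passed, those of Irx3 with Irx6 (−0.316) and Irx5 with Irx6 (0.347) did not, and those of Irx1 with Irx6 (−0.118) and Irx4 with Irx6 (0.293) changed sign. Without Nipbl_het replicate 2, those of Irx1 with Irx4 (0.455) and with Irx3 (0.548) and of Irx2 with Irx4 (0.645) and with Irx3 (0.664) passed, and uncalled ones changed sign for Irx1 with Irx6 (−0.027), Irx4 with Irx5 (0.174) and Irx3 with Irx5 (0.099).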
